A study of Mus musculus with 5 samples.

Results

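The genes described here are 5 genes of intestinal calcium absorption and vitamin D action: S100g, Trpv6, Vdr, Cyp24a1 and Atp2b1. They were taken by symbol from the deposited gene table, which holds 27998 genes, and all 5 were found there. They were measured by droplet single-cell RNA sequencing of epithelial cells from the ileum, the distal small intestine, of C57BL/6 mice aged 8 to 12 weeks. One group had sham surgery (3 libraries, sham 1, 2 and 3) and the other had small bowel resection, in which part of the small intestine is taken out (2 libraries, resection 1 and 2). The labels give no further allele or agent for either group, and do not say whether a library holds 1 animal or a pool, so the spread between libraries may be in part technical. The question the labels pose is how the ileal epithelium differs after resection.

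Calcium crosses the absorptive epithelium of the gut by a transcellular route that is regulated by vitamin D and by a passive route between cells. In the transcellular route the apical channel Trpv6 lets calcium in, calbindin (S100g) binds it in the cytosol, and the plasma membrane calcium pump Atp2b1 expels it at the basolateral side. The active hormone, calcitriol, binds the vitamin D receptor (Vdr), which acts on DNA together with a retinoid X receptor, and Cyp24a1, a mitochondrial cytochrome P450, degrades the hormone and is itself a strong target of the receptor. The transcellular route is best known from the duodenum, and S100g and Trpv6 are among its standard vitamin D target genes.

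The vitamin D receptor binds pairs of half-sites related to AGGTCA. The 250 bases before the annotated start of S100g and of Trpv6 are shown because both hold that half-site, on one strand or the other (TGACCT is its reverse complement), with the matches in capitals. The sequences are from RefSeq (GRCm38.p6), 5′ to 3′ on the gene's strand, which is the minus strand for both. S100g lies at X:162961992-162964599 and its window at X:162964600-162964849. Trpv6 lies at 6:41620619-41636405 and its window at 6:41636406-41636655.
S100g: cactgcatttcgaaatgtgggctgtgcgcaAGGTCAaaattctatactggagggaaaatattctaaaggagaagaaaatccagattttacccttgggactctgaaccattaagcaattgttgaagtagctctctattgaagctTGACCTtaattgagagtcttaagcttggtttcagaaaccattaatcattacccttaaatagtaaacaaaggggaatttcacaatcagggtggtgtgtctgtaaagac
Trpv6: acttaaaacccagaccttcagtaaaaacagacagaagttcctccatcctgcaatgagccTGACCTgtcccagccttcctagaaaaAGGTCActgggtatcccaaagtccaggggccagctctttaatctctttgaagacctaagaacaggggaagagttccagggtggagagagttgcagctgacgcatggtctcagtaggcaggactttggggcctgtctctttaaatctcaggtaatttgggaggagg
The matches begin 220 and 107 bases before the start of S100g, and 191 and 165 bases before that of Trpv6. Both strands were searched. AGGTCA occurred at least once in 14.02% of 32851 RefSeq windows of this kind and 2 or more times in 1.36%. No window of the 4 members with an entry held a direct repeat of half-sites (AGGTCA or the form AGTTCA, or either with G as its first letter) with 3 bases between the copies, an arrangement found in 0.0396% of all windows. The window before Vdr (15:97854427-97908296) held no AGGTCA. Nor did the windows of Atp2b1 (10:98914630-99026143), at 10:98914392-98914641 and 10:98914902-98915151. The former reaches past the printed start of the gene and the latter lies inside the gene. A match is a description of the letters and not a measured binding site.

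The apical channel and the degrading enzyme were not detected in any library. Trpv6 had 0 UMIs (unique molecular identifiers, each counting 1 captured RNA molecule) and Cyp24a1 (2:170482957-170497145) had 0 UMIs in all 19404 deposited barcodes, which together held 126061000 UMIs. A count of 0 allows a level of up to 0.0238 CPM (counts-per-million, the UMIs of a gene over all UMIs of the summed cells on that scale), and allows a UMI in up to 0.0155% of the barcodes. In enterocyte-like cells alone the limit for either gene was 0.0460 CPM over the 5 libraries, and between 0.133 CPM (resection 2) and 0.744 CPM (sham 1) in a single library. Neither gene could be compared between surgery groups. Of all genes in the table, 10218 (36.5%) had 0 UMIs in every barcode. The other 3 members were detected in every library, with 1453 UMIs for S100g, 14166 for Vdr and 15011 for Atp2b1.

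After filters, 18235 cells were kept, 1283 to 6701 per library. The median depth per deposited cell was 4541 to 6239.5 UMIs, and pairs of libraries shared 6 to 47 barcodes, where chance gives 5.45 to 39.4. Cells were grouped into 20 clusters without using the members or other calcium and vitamin D genes, and clusters were named from markers as goblet-like, Paneth-like, stem-like, cycling-like, enterocyte-like (11898 cells), immature enterocyte-like, T cell-like or tuft-like (18 cells, not used further). Fabp2, an enterocyte fatty acid carrier, stood at 6367 to 47931 CPM in enterocyte-like cells. T cell-like droplets also held much enterocyte RNA, with 5012 to 37029 CPM of Fabp2 beside 291 to 660 CPM of the T cell gene Cd3g, so they are not a clean background. Sham 1 and resection 1 had the highest median mitochondrial share (13.7% and 11.7%, against 7.24% to 9.19% in the other 3), and earlier results of these data set these 2 libraries apart from the others. The labels name no such set. Some clusters came mainly from 1 library: 773 of 853 cells of the enterocyte-like cluster led by Slc13a1, Sgk1 and Pmp22 were from resection 1, and 415 of 535 cells of the one led by Ccl20, Nos2 and Rcan1 were from sham 3. The 5 Paneth-like clusters each drew most of their cells from 1 library. The stem-like cluster scored 0.744 for stem markers on a scale from 0 to 1. Its 10 leading genes held the stem markers Slc12a2 and Cdca7 but not Lgr5. The DNA replication genes Mcm5 and Mcm6 were also among them, so the name does not set stem cells apart from replicating progenitors.

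S100g, the cytosolic calcium buffer, was low and was highest in immature enterocyte-like cells. In these cells its level was 26.8, 19.2 and 33.5 CPM in sham 1, 2 and 3, and 11.8 and 25.7 CPM in resection 1 and 2. In enterocyte-like cells it was 9.42, 8.03 and 31.7 CPM in the sham libraries and 1.12 and 8.18 CPM in the resection libraries. The immature cells were above the enterocyte-like cells in 5 of 5 libraries, by 1.06 times (sham 3) to 10.5 times (resection 1). Ordered by the mean of the 5 libraries, immature enterocyte-like cells (23.4 ± 8.23 CPM, SD, n = 5) were followed by stem-like (13.0 ± 7.65), cycling-like (11.9 ± 6.77), enterocyte-like (11.7 ± 11.7), T cell-like (8.24 ± 6.56), goblet-like (7.84 ± 6.43) and Paneth-like cells (1.61 ± 1.81). Immature cells exceeded stem-like cells in 5 of 5 libraries. Further down, stem-like exceeded cycling-like cells in 3 of 5 libraries and cycling-like exceeded enterocyte-like cells in 3 of 5, so these neighbours did not differ beyond their spread. Enterocyte-like exceeded T cell-like droplets in 4 of 5, and goblet-like exceeded Paneth-like cells in 3 of 5. Antimicrobial gene UMIs fill most of the total of Paneth-like cells, and with them left out S100g stood there at 5.22, 13.0 and 0 CPM in sham and 1.68 and 14.2 CPM in resection. On that scale Paneth-like cells were above enterocyte-like cells in sham 2, resection 1 and resection 2 (8.14, 1.13 and 8.23 CPM in enterocyte-like cells). They were below them in sham 1 and 3 (9.51 and 31.8 CPM). The Paneth-like value of resection 1 rests on 1 UMI. The remaining classes were not put on that scale, so the order of all classes there was not determined.

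The share of cells with an S100g UMI gave the same leading class. It averaged 12.4% of immature enterocyte-like cells, 5.39% of enterocyte-like cells and 4.95% of T cell-like droplets. With each cell thinned to 2000 UMIs, so that depth is equal, these shares were 4.04%, 1.85% and 0.741%. By the thinned share immature cells were above stem-like cells in 4 of 5 libraries and above each other class in 5 of 5. In sham 1 it was 3.35% of immature cells against 4.55% of the 22 stem-like cells. Most cells with the transcript held a single UMI. Over all 18235 cells, 819 had 1 UMI of S100g, 133 had 2 and 75 had 3 or more, and of these 75 cells 44 were from sham 3. Sham 3 had the highest S100g level in all classes shown except Paneth-like cells, where it had 0 UMIs in 118 cells, which allows up to 2.67 CPM. In T cell-like droplets the same library was highest, with 19.3 CPM in sham 3 against 2.01 to 7.84 CPM in the other libraries.

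**Figure D1:**
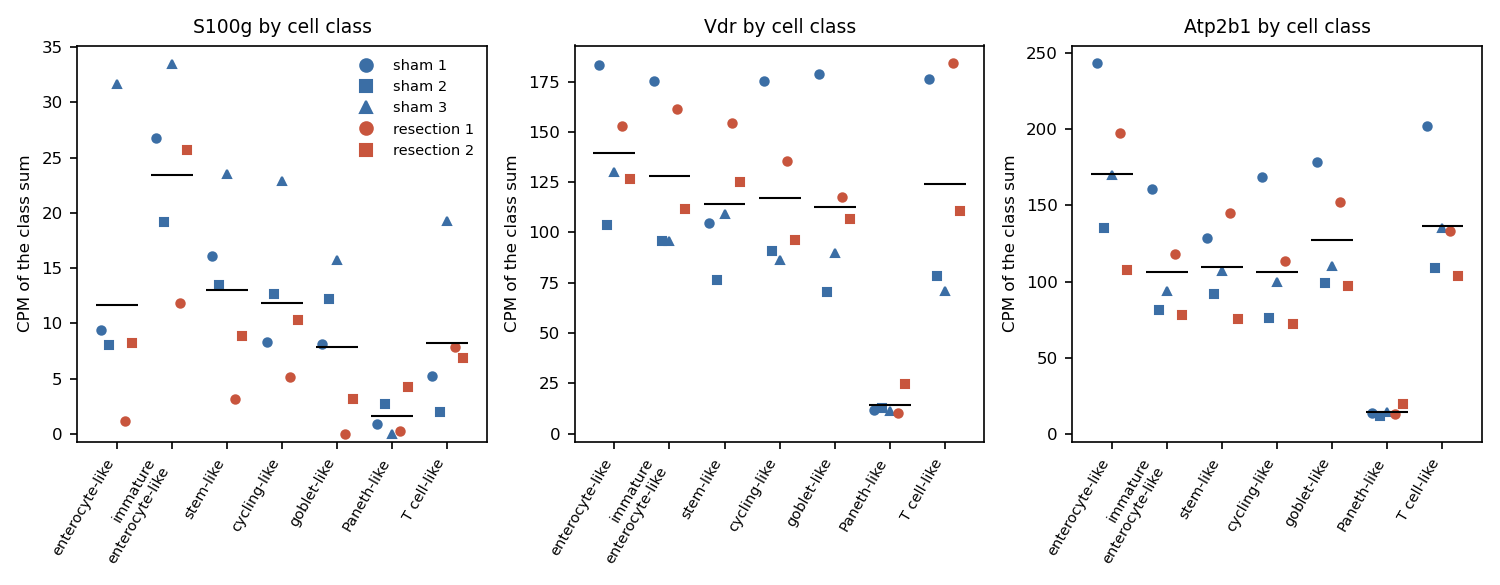
Levels of S100g, Vdr and Atp2b1 in CPM (y axis) in each cell class (x axis), 1 point per library with sham in blue and resection in red, and a black line at the mean of the 5 libraries. S100g is highest in immature enterocyte-like cells, Atp2b1 in enterocyte-like cells, and Vdr and Atp2b1 are near 14 to 15 CPM in Paneth-like cells.

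Within enterocyte-like cells, S100g was unevenly spread over the 9 clusters. The cluster led by Edn1, F3 and Areg had the highest S100g level of the 9 in 5 of 5 libraries, with a mean of 20.8 ± 14.8 CPM (SD, n = 5). The cluster led by the lower-villus genes Gsta1, Ms4a18 and Lypd8 came next at 14.3 ± 14.4 CPM. Both lay close to the immature class by their markers: on a scale from 0 to 1 the Edn1 cluster scored 0.607 for enterocyte and 0.595 for immature enterocyte markers, and the Gsta1 cluster 0.628 and 0.565. The lowest levels were in the cluster led by the lipid and lactose genes Apoa4, Lct and Fabp1 (2.06 ± 1.84 CPM, 18 UMIs in 2493 cells) and in the Slc13a1 cluster (2.37 ± 5.29 CPM, 2 UMIs in 853 cells).

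**Figure D2:**
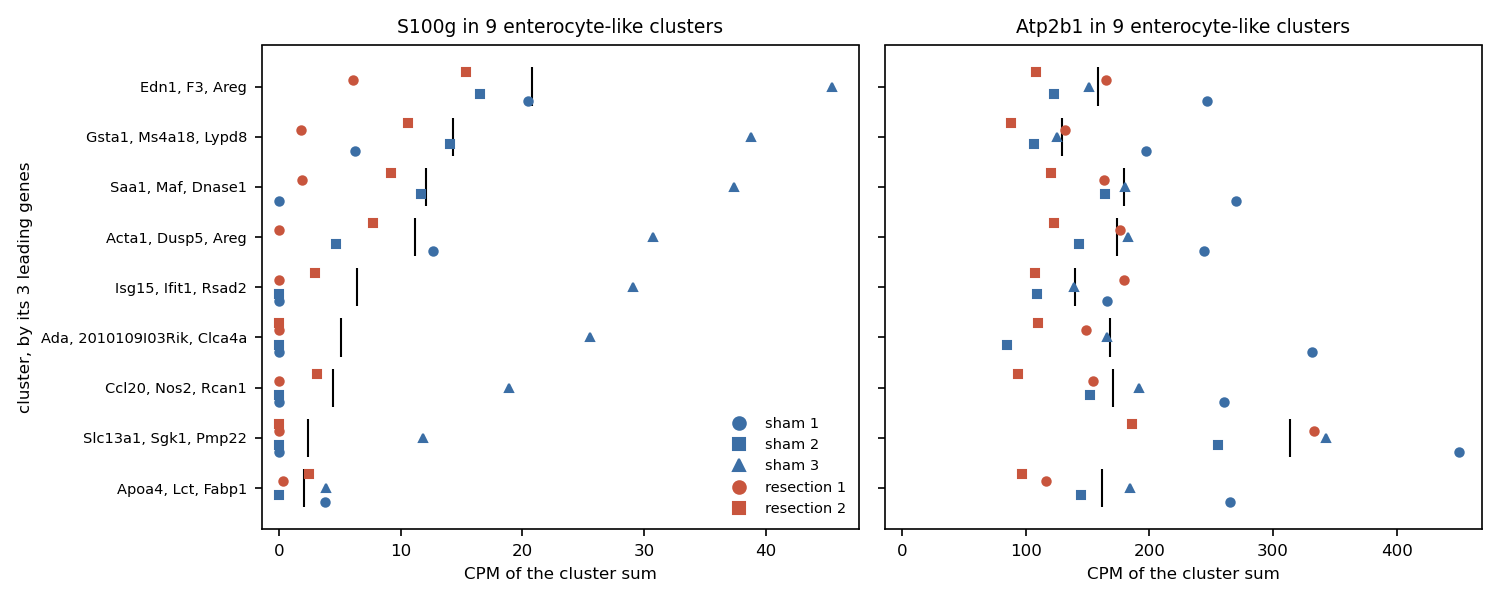
Levels of S100g (left) and Atp2b1 (right) in CPM (x axis) in the 9 enterocyte-like clusters (y axis, named by their 3 leading genes), 1 point per library and a black line at the mean. S100g is highest in the Edn1 cluster in each library, and Atp2b1 in the Slc13a1 cluster.

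Along the villus, S100g was lower at the tip than in the lower villus in 5 of 5 libraries. Enterocyte-like cells of each library were cut into 5 equal bins by a score of 6 villus tip genes minus 7 lower-villus genes. From the lowest to the top bin, the mean level was 14.2, 14.1, 13.4, 10.5 and 3.78 CPM. In the top bin it was 1.29, 0.571 and 14.7 CPM in sham 1, 2 and 3, and 0.406 and 1.87 CPM in resection 1 and 2. The bottom bin held 10.5, 9.18 and 35.6 CPM in the sham libraries and 3.40 and 12.2 CPM in the resection libraries. On the log2(CPM + 10) scale, which understates changes at low levels, the top minus the bottom bin was -0.77 ± 0.23 (SD, n = 5). An exact two-sided sign-flip permutation test gave p = 0.062, the smallest value 5 libraries allow (adjusted p = 0.0938 over the 3 members tested). The median depth of a cell was also lower at the top, at 3185 to 4864 UMIs against 4818 to 6428 in the bottom bin; its part in the result was not tested.

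**Figure D3:**
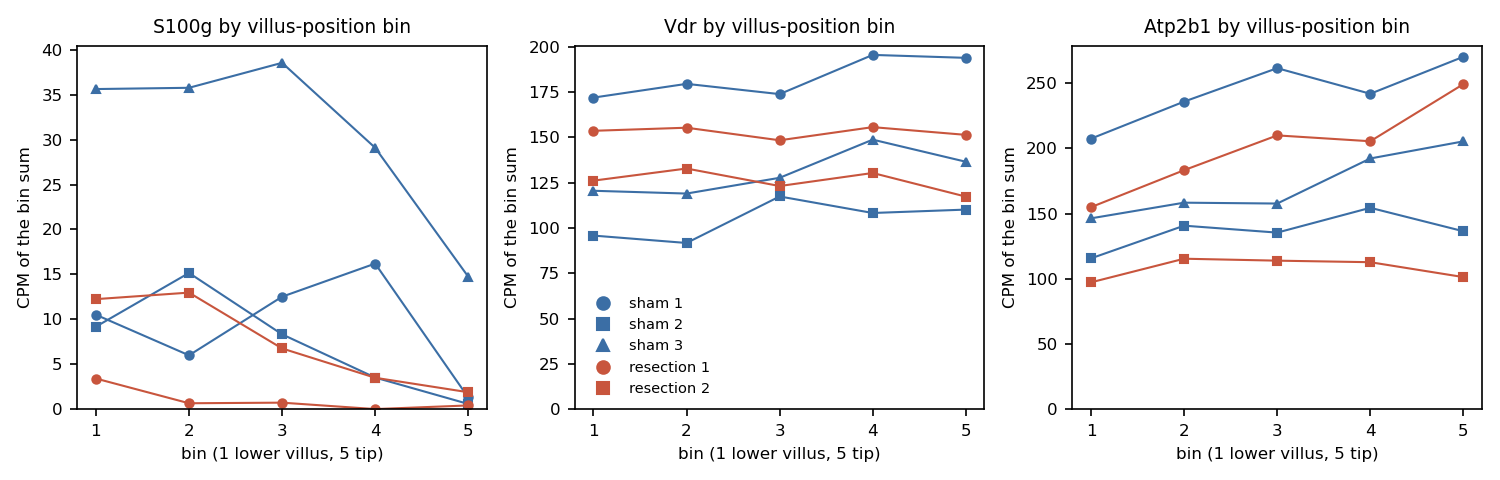
Levels of S100g, Vdr and Atp2b1 in CPM (y axis) in 5 villus-position bins of enterocyte-like cells (x axis, 1 lower villus to 5 tip), 1 line per library with sham in blue and resection in red. S100g is lower and Atp2b1 higher in bin 5 than in bin 1 in each library, and Vdr is nearly level.

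Between surgery groups, S100g was lower on average after resection in the classes where it could be tested, and no difference passed the test. In enterocyte-like cells the sham mean was 16.4 ± 13.3 CPM (SD, n = 3) and the resection mean 4.65 ± 4.99 CPM (SD, n = 2). Resection 1 was lowest of the 5, while resection 2 lay between sham 2 and sham 1, so the groups overlapped. The log2 fold change was -1.79 ± 0.92 (SE; edgeR adjusted p = 0.997). In the fit of enterocyte-like cells 0 of 10532 genes passed an adjusted p of 0.05 (0%), 556 had an unadjusted p under 0.05, and DESeq2 called 81. S100g passed under 1 alternative, without a filter on low counts (log2 fold change -1.76, edgeR adjusted p = 0.0371), and its adjusted p ranged from 0.0371 to 1 over 15 tested alternatives. Single libraries moved the size: it was -4.06 without resection 2, -0.96 without resection 1 and -0.77 without sham 3. Between sham 1 and resection 1 alone it was -2.44, and between sham 2 and 3 and resection 2 it was -1.21.

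The mix of enterocyte-like clusters also differed between the groups. The S100g-low cluster led by Apoa4, Lct and Fabp1 made up 13.6%, 16.5% and 2.72% of enterocyte-like cells in the sham libraries, against 25.5% and 29.2% in the resection libraries. In the enterocyte-like cells outside it, S100g was at 10.3, 9.23 and 32.3 CPM in sham and 1.39 and 10.1 CPM in resection, so resection 2 again lay between sham 2 and sham 1. In the S100g-high Edn1 cluster the level was 20.4, 16.5 and 45.4 CPM in sham and 6.07 and 15.4 CPM in resection. Both resection libraries were below every sham library there, resection 2 by a narrow gap to sham 2, and this was not tested. The resection 1 value rests on 10 UMIs. In enterocyte-like cells as a whole, 7.96% of all genes tested had both resection libraries below every sham library. That share was not counted within the cluster. The Slc13a1 cluster made up 30.6% of enterocyte-like cells in resection 1 and 0.558% to 1.76% in the other libraries.

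In immature enterocyte-like cells the groups also overlapped, with a log2 fold change of -0.47 ± 0.43 (SE; edgeR adjusted p = 0.9999, 0% of 9602 genes called). The sign turned to 0.071 without resection 1. The resection effect on S100g was more negative in enterocyte-like than in immature cells by -1.32 ± 0.41 on the log2 scale (SE; edgeR interaction, adjusted p = 0.206), a difference that did not pass after adjustment over 10284 genes, of which 0.0389% were called. In cycling-like cells the level was 8.34, 12.7 and 22.9 CPM in sham and 5.14 and 10.3 CPM in resection (log2 fold change -1.08 ± 0.51, SE; edgeR adjusted p = 0.9999, 0% of 9336 genes called).

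In stem-like cells both resection libraries were below every sham library. S100g stood there at 16.1, 13.5 and 23.5 CPM in the sham libraries (2, 6 and 29 UMIs) and 3.15 and 8.88 CPM in the resection libraries (2 and 10 UMIs). The log2 fold change was -1.55 ± 0.61 (SE; edgeR adjusted p = 0.9999, 0% of 6620 genes called). Of all genes tested in these cells 4.68% had both resection libraries below the sham range. In goblet-like cells S100g was too low to be tested, with 2, 12 and 11 UMIs in sham 1, 2 and 3 against 0 and 4 in resection 1 and 2. The 0 UMIs in 68 cells of resection 1 allow a level of up to 5.78 CPM.

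Vdr, the receptor of the hormone, was present at a like level in all classes but one. In enterocyte-like cells it was 183, 104 and 130 CPM in sham 1, 2 and 3, and 153 and 126 CPM in resection 1 and 2. The means of immature enterocyte-like, T cell-like, cycling-like, stem-like and goblet-like cells lay between 113 and 128 CPM, and that of enterocyte-like cells at 139 ± 30.2 CPM (SD, n = 5). Enterocyte-like cells exceeded cycling-like and goblet-like cells in 5 of 5 libraries and each of the other 3 in 4 of 5, so most neighbours in this order did not differ beyond their spread. Sham 1 and resection 1 had the highest Vdr level of their group in each of these classes except stem-like cells, where sham 3 was above sham 1. T cell-like droplets, which held much enterocyte RNA, stood at 124 CPM of Vdr. The part of such RNA in the Vdr levels of classes other than enterocyte-like cells was not tested.

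Paneth-like cells stood apart at 14.3 ± 5.94 CPM of Vdr (SD, n = 5), below enterocyte-like cells by 5.08 to 15.3 times. Antimicrobial gene UMIs made up 70.2% to 85.5% of the UMIs of these cells, against 0.302% to 1.31% in enterocyte-like cells. With these UMIs left out of the total, Vdr was at 61.5 to 83.5 CPM in Paneth-like cells and 105 to 185 CPM in enterocyte-like cells, so the gap was narrower on that scale. Along the villus the receptor was nearly level: top minus bottom was 0.080 ± 0.13 on the log2(CPM + 10) scale (SD, n = 5), higher at the top in 3 of 5 libraries (exact sign-flip permutation p = 0.250, adjusted p = 0.250). The 3 libraries higher at the top were the sham libraries. The 2 resection libraries had differences of -0.020 and -0.097, and this contrast between the groups was not tested. With tip genes alone the mean was -0.062.

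No difference in Vdr between surgery groups passed the test in any class. In enterocyte-like cells the log2 fold change was 0.014 ± 0.26 (SE; edgeR adjusted p = 0.9998), with means of 139 ± 40.5 CPM (SD, n = 3) in sham and 139.7 ± 18.9 CPM (SD, n = 2) in resection. Both resection libraries lay inside the sham range. In immature enterocyte-like cells it was 0.15 ± 0.30 (SE). Stem-like cells were the exception in order, with 105, 76.4 and 109 CPM in the sham libraries and 154 and 125 CPM in the resection libraries. There both resection libraries were above every sham library (log2 fold change 0.48 ± 0.31, SE; edgeR adjusted p = 0.9999), as were 7.02% of all genes tested in these cells. Paneth-like cells gave 0.27 ± 0.36 (SE; 0.0317% of 6316 genes called), goblet-like cells 0.099 ± 0.38 and cycling-like cells -0.022 ± 0.34.

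Atp2b1, the calcium pump, was highest in enterocyte-like cells. It stood there at 243, 135 and 170 CPM in sham 1, 2 and 3, and at 198 and 108 CPM in resection 1 and 2. The mean of 171 ± 53.0 CPM (SD, n = 5) was 1.61 times that of immature enterocyte-like cells (106 ± 34.2 CPM), and by CPM enterocyte-like cells were above each other class in 5 of 5 libraries. By the share of cells with a UMI after thinning to 2000 UMIs they were above goblet-like cells in 3 of 5 libraries (means of 27.8% and 26.6%), above cycling-like cells in 4 of 5 and above each of the other 4 classes in 5 of 5. T cell-like droplets (137 CPM) and goblet-like cells (127 CPM) followed, and the part of enterocyte RNA in these levels was not tested. Stem-like (109.6 CPM), immature enterocyte-like and cycling-like cells (106 CPM each) did not differ beyond their spread. Paneth-like cells were lowest at 14.5 ± 2.97 CPM, or 56.8 to 90.5 CPM when the antimicrobial UMIs are left out of the total. Like Vdr, the pump was highest in sham 1 among the sham libraries and higher in resection 1 than in resection 2 in enterocyte-like cells.

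The enterocyte-like cluster led by Slc13a1, Sgk1 and Pmp22 had the highest Atp2b1 level of the 9 in 5 of 5 libraries. Sgk1 is a kinase that promotes sodium transport and Slc13a1 a sulphate carrier. The mean of that cluster was 314 ± 99.6 CPM (SD, n = 5), and those of the other 8 lay between 129.8 and 179.7 CPM. The cluster held as few as 5 cells in sham 1. It was also the cluster with the highest Vdr in 4 of 5 libraries (188 ± 78.7 CPM), and it held 2 UMIs of S100g. Along the villus Atp2b1 was higher at the tip in 5 of 5 libraries, with mean levels of 144, 167, 176, 181 and 192 CPM from the lowest to the top bin. The difference was 0.35 ± 0.23 on the log2(CPM + 10) scale (SD, n = 5; exact sign-flip permutation p = 0.062, adjusted p = 0.0938). It was smallest in resection 2 (0.053), and with 3 bins or with tip genes alone it was above 0 in 4 of 5 libraries.

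Atp2b1 did not differ between surgery groups by the test in any class. In enterocyte-like cells the sham mean was 183 ± 55.2 CPM (SD, n = 3) and the resection mean 153 ± 63.6 CPM (SD, n = 2), with resection 2 below and resection 1 inside the sham range. The log2 fold change was -0.28 ± 0.31 (SE; edgeR adjusted p = 0.997), and it was 0.0065 without resection 2. In the enterocyte-like cells outside the Slc13a1 cluster, Atp2b1 was at 242, 134 and 168 CPM in sham and 145 and 107 CPM in resection, so resection 1 stayed inside the sham range. In immature enterocyte-like cells it was -0.21 ± 0.30 (SE), in stem-like cells -0.037 ± 0.34, in cycling-like cells -0.32 ± 0.34, in goblet-like cells -0.0090 ± 0.36 and in Paneth-like cells 0.13 ± 0.35. Over all epithelial cells the log2 fold changes were -1.21 ± 0.68 for S100g, 0.081 ± 0.25 for Vdr and -0.23 ± 0.29 for Atp2b1 (SE), with 0% of 11727 genes called by edgeR. In that sum Vdr had both resection libraries above every sham library, as had 18.2% of all genes tested, and the sum also moves with the share of Paneth-like cells, which was 17.5% of epithelial cells in sham 1 and 4.17% to 6.38% in the other libraries.

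Genes with the most similar pattern were taken over 30 sums (6 classes in 5 libraries), by Pearson's r of log2(CPM + 10) among the 4742 other genes with at least 20 CPM (4743 for S100g). For S100g these were Gnpnat1 (r = 0.87), Gsta4 (0.83), Gm3336 (0.83), Tstd1 (0.82) and Spcs2 (0.82). For Vdr they were Cd2ap, 1700020I14Rik, Csnk1a1, Ago2 and Ctnnb1 (r = 0.97 to 0.98). For Atp2b1 they were Ctnnb1, Mapk1ip1l, Chmp4b, Ifngr1 and Ghitm (0.97 to 0.98). The sums share their libraries, and the low Paneth-like levels enter each of the latter 2 sets.

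The wider pathway was described by a list of 48 genes in 7 roles, of which the 5 members are part. In enterocyte-like cells 29 of the 48 were abundant enough to be tested, and 0 passed in either direction. Their median log2 fold change was 0.014, beside -0.019 over all genes tested. Both resection libraries were above every sham library for 6 of the 29 (Cyp27a1, Slc30a10, Cubn, Slc34a2, Cyp3a11 and Pdzd3) and below for 0. Over all genes tested these shares were 8.25% above and 7.96% below.

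Of the apical entry genes, Trpv6 and Trpv5 were at 0 UMIs and the other 4 were tested. S100a10 and Anxa2, which form a complex that carries the channel to the membrane, stood at 2171 and 977 CPM on average, with log2 fold changes of -0.24 ± 0.47 and -0.37 ± 0.39 (SE). Rab11a, a recycling endosome protein, gave -0.31 ± 0.36. Among the buffer and sensor proteins, Calb1 and Calb2 were at 0 UMIs, and the calmodulin genes Calm2 and Calm3 gave -0.34 ± 0.54 and 0.046 ± 0.31. Each of these values was smaller than its SE, and 0 of them passed. In other classes the Calm3 groups separated without passing: both resection libraries were above every sham library in goblet-like cells, as were 9.25% of all genes tested there, and below in cycling-like cells, as were 3.27%.

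Among the 12 extrusion and store genes, Atp2b1 was the only plasma membrane calcium pump with more than 29 UMIs. Atp2b2 and Atp2b3 and the sodium-calcium exchangers Slc8a1, Slc8a2 and Slc8a3 were at 0 UMIs, and Atp2b4 had 29 UMIs. Atp2a2, the reticulum calcium pump, stood at 112 CPM (log2 fold change -0.36 ± 0.26), and the Golgi pump Atp2c1 at 20.3 CPM (0.065 ± 0.23). Of the claudins, which form the tight junction pores of the passive route, Cldn15 was at 378, 278 and 205 CPM in sham and 431 and 316 CPM in resection (0.38 ± 0.30). Cldn2 was at 43.6, 14.8 and 55.7 CPM in sham and 12.3 and 17.9 CPM in resection (-1.30 ± 0.53, SE; edgeR adjusted p = 0.908). The Cldn2 groups overlapped, since sham 2 lay between the 2 resection libraries.

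Of the receptor's partners, Rxrg, a retinoid X receptor, was at 0 UMIs in all barcodes. Rxra, another retinoid X receptor, which pairs with Vdr, stood at 65.5 CPM (log2 fold change 0.071 ± 0.32), and the coactivator subunit Med1 at 24.5 CPM (-0.18 ± 0.31). Pdia3, a reticulum protein also described as a membrane binder of the hormone, gave -0.67 ± 0.39 (SE; edgeR adjusted p = 0.997). It passed under 1 alternative, the replicate block (-0.74, edgeR adjusted p = 0.0321). Among the genes of vitamin D metabolism and uptake, Cyp27b1, which makes the active hormone, had 2 UMIs in all barcodes, and Cyp2r1 had 69. Cubn, an endocytic receptor of ileal enterocytes, had both resection libraries above every sham library, as had 8.25% of all genes tested in enterocyte-like cells. It was at 124, 153 and 90.7 CPM in sham and 401 and 241 CPM in resection. Its log2 fold change was 1.34 ± 0.34 (SE; edgeR adjusted p = 0.534, and between 0.000945 and 0.9998 over 15 alternatives). It passed with DESeq2, without a filter on low counts and with the replicate block. In the enterocyte-like cells outside the Slc13a1 cluster Cubn was at 123, 152 and 87.8 CPM in sham and 246 and 240.4 CPM in resection.

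Of the other receptor targets, Slc34a2, a phosphate carrier, was at 420, 285 and 145 CPM in sham and 537 and 505 CPM in resection (0.91 ± 0.39, SE; edgeR adjusted p = 0.941). The drug exporter gene Abcb1a gave 0.20 ± 0.49. Cyp3a11, a cytochrome P450 of drug and steroid metabolism that other nuclear receptors also induce, was at 5.21, 2.91 and 0.839 CPM in sham and 38.5 and 62.7 CPM in resection (4.27 ± 0.58, SE; edgeR adjusted p = 0.238). Over 15 alternatives its adjusted p ran from 5.83e-13 to 0.562, and it passed with DESeq2, without a filter on low counts, with the replicate block, with the library set as a term and at no more than 10% mitochondrial counts. At no more than 10% mitochondrial counts sham 1 kept 38 enterocyte-like cells, against 723 in the main setting. Cyp3a11 was among the 10 leading genes of the Apoa4 cluster, which was larger after resection. The Cyp3a11 groups also did not overlap in the enterocyte-like cells outside that cluster, where the share of all genes that separate was not counted. It was at 5.15, 1.42 and 0.778 CPM in sham and 24.2 and 32.0 CPM in resection there. In goblet-like cells it was the 1 list gene of 25 tested that passed, at 0, 3.06 and 0 CPM in sham and 40.5 and 53.7 CPM in resection (log2 fold change 4.81 ± 0.65, SE; edgeR adjusted p = 0.0145), where 0.0628% of 6367 genes were called. That call was lost without sham 3 (edgeR adjusted p = 0.154) and without resection 2 (0.182). T cell-like droplets, which also held much enterocyte RNA, had 10.4, 0 and 6.43 CPM of Cyp3a11 in sham and 35.3 and 55.6 CPM in resection. The goblet-like cluster scored 0.986 for goblet markers and 0.679 for enterocyte markers. The part of enterocyte RNA in the goblet-like value was not tested.

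**Figure D4:**
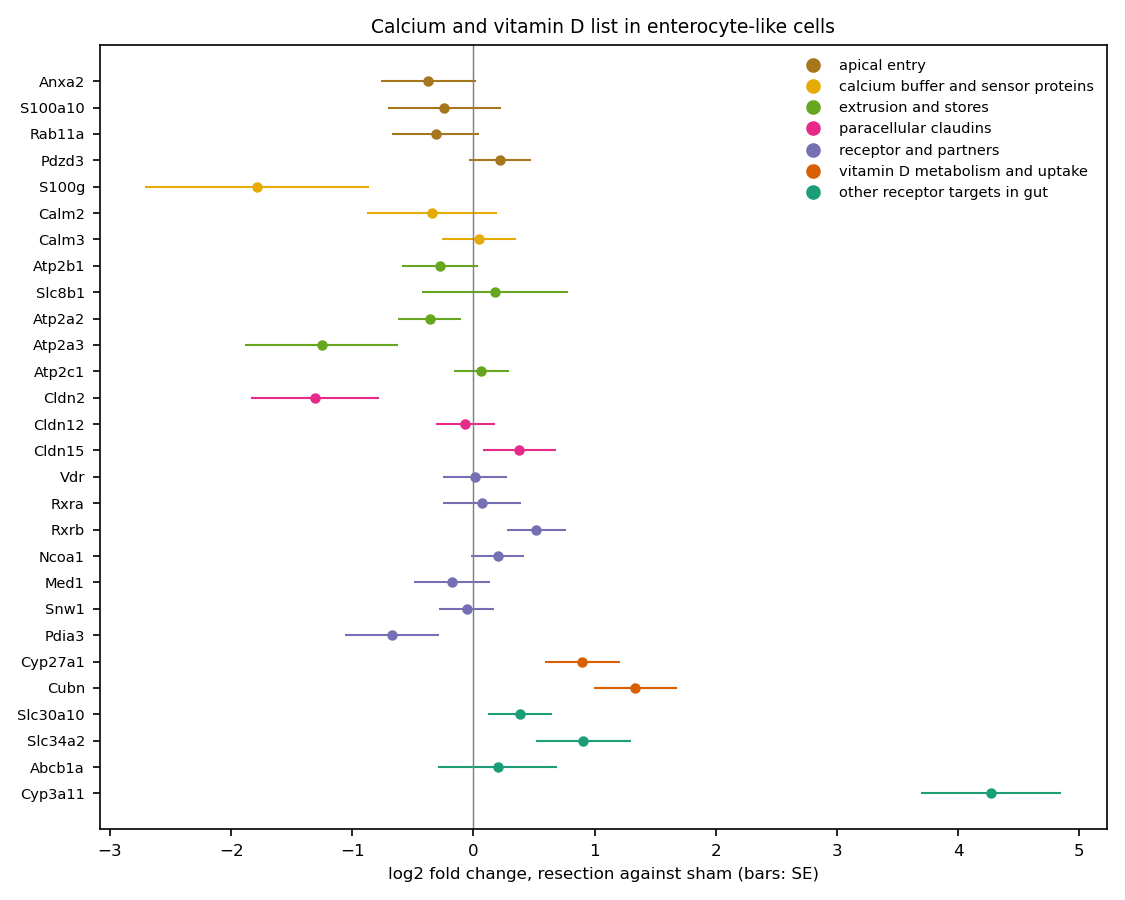
Log2 fold changes between resection and sham (x axis) of 28 list genes tested in enterocyte-like cells (y axis), coloured by role, with bars for the SE (3 sham and 2 resection libraries). S100g has the lowest value and Cyp3a11 the highest, and none of the 28 passed the test.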

How the data were processed

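The deposited matrices hold raw UMI counts per gene and cell barcode, made by the authors with the 10x Chromium 3' v2 kit and Cell Ranger, per the labels, which give its version with a question mark. Gene symbols, identifiers and barcodes are text the authors deposited, scored as no measurement. The submitters' processing notes name the builds mm10 and GRCm38. The aligner settings and annotation are not given in the sources used here. The libraries held 1402, 4014 and 2868 barcodes (sham 1, 2 and 3) and 3887 and 7233 (resection 1 and 2), with 11749028 to 41281731 UMIs each.

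Barcodes needed 500 detected genes and a mitochondrial share of 20% or less, and 720 doublets (3.80%) were removed by comparison with simulated doublets. Log values of 2000 variable genes, without the 48 list genes, were scaled within each library and reduced to 30 components, and 20 neighbours were clustered (leidenalg 0.10.2, resolution 1.0). The design had clustering without that scaling as the first choice. It left a library without stem-like cells, so the 2 were exchanged before any fit. Clusters were named by the mean position of fixed markers between their lowest and highest cluster. This rule was set after seeing the clusters.

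Counts were summed per library and class (at least 20 cells in every library) and tested with edgeR 4.0.16 (quasi-likelihood, TMM, filterByExpr; R 4.3.3) in a two-sided test, adjusted by Benjamini-Hochberg over all genes tested. The SE is the fold change over the root of its F statistic. The code was tested on simulated data. Printed CPM use the plain total. Alternatives used DESeq2 1.42.0, other scalings, filters and clusterings, and fewer libraries. Limits for 0 use 3 counts, and cover counting error only. The labels do not say whether libraries are separate animals, so p-values measure the spread between libraries.

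The members and lists were chosen with earlier results of these data known. Named genes are the members, list genes that passed in a class, up to 3 per role with at least 20 CPM in enterocyte-like cells ranked by size of change, and the 5 genes most like each member; 1 list gene is counted but not reported here. Cyp27a1, Slc30a10, Pdzd3, Trpv5, Calb1, Calb2, Atp2b2, Atp2b3, Atp2b4, Slc8a1, Slc8a2, Slc8a3, Cyp27b1, Cyp2r1, Rxrg and Ncoa1 were named after their values were seen. For 56 symbols that stand on more than 1 row, 1 row was used.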

Additional observations from a re-analysis of the deposited data

Results flagged for a closer look

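Among the named list genes, the surgery groups separated in opposite directions in 2 classes for Calm3. This calmodulin gene was at 288, 289 and 276 CPM in sham and 306 and 331 CPM in resection in goblet-like cells, and at 327, 269 and 247 CPM in sham and 244 and 232 CPM in resection in cycling-like cells. Its log2 fold change was 0.19 in goblet-like and -0.27 in cycling-like cells, a difference of 0.45 that was not tested. Neither value passed the test (edgeR adjusted p = 1 in goblet-like and 0.9999 in cycling-like cells). Ncoa1, a coactivator gene named after its values were seen, also separated in opposite directions, with log2 fold changes of -0.38 in goblet-like and 0.57 in Paneth-like cells (edgeR adjusted p = 1 and 0.9999). Of all genes tested, 6.68% had both resection libraries below every sham library in goblet-like cells, and 7.47% had both above in Paneth-like cells. Groups of 3 and 2 libraries are too small for a test for outlying libraries.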

How the results depend on the processing

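Over 763 values under alternatives, 658 kept the direction and the side of the threshold or moved by less than the spread. The sign of the fold change turned for Vdr and Atp2b1 in several classes and for S100g in immature enterocyte-like cells, but not for S100g in the other classes tested. The cause was not tested.

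Leaving out 1 library in turn gave these ranges of the log2 fold change. S100g in immature enterocyte-like cells ran from -1.37 to 0.071. Vdr ran from -0.0051 to 0.20 in all epithelial cells, -0.11 to 0.12 in enterocyte-like, -0.17 to 0.24 in cycling-like, -0.11 to 0.44 in goblet-like and -0.015 to 0.50 in Paneth-like cells. Atp2b1 ran from -0.49 to 0.0056 in all epithelial, -0.63 to 0.0065 in enterocyte-like, -0.42 to 0.29 in stem-like and -0.21 to 0.21 in goblet-like cells. In enterocyte-like cells S100a10 ran from -0.79 to 0.15, Calm2 from -1.04 to 0.13, Calm3 from -0.30 to 0.33, Rxra from -0.14 to 0.31, Med1 from -0.34 to 0.12 and Abcb1a from -0.97 to 0.83. The count of list genes called ran from 0 to 1 in goblet-like and in Paneth-like cells.

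Between sham 1 and resection 1 alone, S100g was -1.05 in immature enterocyte-like cells. Vdr was -0.067 in all epithelial, -0.11 in enterocyte-like, -0.024 in immature, -0.42 in goblet-like and -0.051 in Paneth-like cells, and Atp2b1 was 0.30 in stem-like cells. In enterocyte-like cells Anxa2 was 0.100, S100a10 0.042, Calm2 0.068, Calm3 -0.15, Atp2c1 -0.034 and Rxra -0.098. Between sham 2 and 3 and resection 2, S100g was -0.0051 in immature cells, Vdr 0.14 in cycling-like and 0.51 in goblet-like cells, Atp2b1 -0.38 in stem-like cells and Abcb1a -0.92 in enterocyte-like cells. With the library set as a term, Vdr was -0.010 and Abcb1a -0.18 in enterocyte-like cells, and 1 list gene was called there.

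Without a filter on low counts, S100g in enterocyte-like cells passed at -1.76, Vdr in cycling-like cells was 0.011 and Atp2b1 in goblet-like cells 0.054. List genes called were then 1 in all epithelial, 3 in enterocyte-like, 1 in immature, 1 in cycling-like and 1 in Paneth-like cells. DESeq2 called 1 in all epithelial and 2 in enterocyte-like cells. With total count scaling, Vdr was 0.0089 in cycling-like and Atp2b1 0.036 in stem-like cells. At 10% mitochondrial counts Vdr was -0.077 in all epithelial cells, Med1 was 0.14 in enterocyte-like cells, and 1 list gene was called there. In that setting sham 1 kept 38 enterocyte-like cells and 50 epithelial cells, against 723 and 1252. A further 210 cells of sham 1 stayed unnamed and were left out of the epithelial sum. At resolution 0.5 and without scaling within libraries Vdr in cycling-like cells was 0.079 in each, and in the latter -0.028 in enterocyte-like cells. With doublets kept Atp2b1 was -0.069 in Paneth-like cells. With tip landmark genes only, Vdr was -0.062 at the top of the villus.

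Only 2 replicate numbers are shared between the groups and the labels do not say that they pair libraries. In enterocyte-like cells, deviations from the group mean correlated across genes at r = 0.56 for number 1 and r = 0.22 for number 2. The deviations of the 2 resection libraries are exact opposites, so these values are not separate and cannot show that the numbers pair libraries. With the replicate block S100g was -1.04 (edgeR adjusted p = 0.104), Vdr 0.042, Atp2b1 -0.29 and Rxra -0.13 in enterocyte-like cells, and 2 list genes were called in all epithelial, 4 in enterocyte-like, 1 in immature, 3 in goblet-like and 1 in Paneth-like cells. Sham 3 shares its number with no resection library, so it does not enter the contrast of this fit. The block also leaves very few residual degrees of freedom, which limits every call made with it, here and in other passages.

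Counts over all genes moved too. In enterocyte-like cells edgeR called 0 genes, but 171 without a filter, 389 with the replicate block, 39 with the set as a term, 7 at 10% mitochondrial counts and 3 without resection 2. In goblet-like cells 4 were called, 37 without a filter, 101 with the block and 0 without sham 3. The largest counts were 142 in all epithelial, 53 in immature and 58 in cycling-like cells, each with the block, 4 in stem-like cells without a filter and 28 in Paneth-like cells with the block.

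Thinned to 2000 UMIs, the share of cells with a Vdr UMI was 24.6% in enterocyte-like, 22.0% in immature, 20.1% in stem-like, 23.2% in cycling-like, 19.7% in goblet-like, 3.05% in Paneth-like and 22.9% in T cell-like cells. For Atp2b1 it was 27.8%, 18.9%, 19.1%, 20.8%, 26.6%, 2.15% and 23.2%, and for S100g 4.04% in immature and 2.00% in cycling-like cells. These are lower than the unthinned shares by construction. At 10% mitochondrial counts only enterocyte-like and all epithelial cells could be fitted. No cluster was named stem-like at resolution 0.5. The cycling-like cluster then held 1668 cells, against 1111, and stem markers gave its second score (0.626). Stem-like cells also gave no value without scaling within libraries or with doublets kept, since a library then had fewer than 20 such cells. S100g counts of 2 to 29 UMIs per library in stem-like cells and 0 to 12 UMIs in goblet-like cells limit its values there.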
